A study of Mus musculus with 12 samples.

Results

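The response of Bmal1-deficient mouse macrophages to M1 activation was followed across all genes that these cells expressed. The genes described are those with at least 1 TPM (the share of a gene in the transcripts of its library, corrected for transcript length and brought to one fixed total) in at least 3 of 6 libraries, namely 3 of M-BKO cultures given LPS and 3 of M-BKO cultures without LPS. This selected 10651 of the 23440 genes in the deposited table, or 45.4%. The study sequenced mRNA of bone-marrow-derived macrophages (BMDM) from C57/BL6 mice aged 8 to 24 weeks, grown out of bone marrow for 7 days in medium with 30% L929-conditioned medium. M-BKO cells came from Bmal1 f/f mice that carry Lyz2-Cre, which removes the floxed exon 8 of Bmal1 (named Arntl in the table) in cells of the myeloid lineage, and WT cells came from Bmal1 f/f mice for which no Cre is named. M1 cultures were primed with Ifn-γ (10 ng/mL, for 10 to 12 h) and then given LPS (10 ng/mL) for 8 h, and control cultures had Ifn-γ without LPS, so that every library of the series is from Ifn-γ-treated cells and the comparison measures what LPS added. There were 3 libraries in each of the 4 groups (M-BKO M1, M-BKO control, WT M1 and WT control). The replicates are described as cell culture replicates and the sources used here do not give the number of mice, so p-values measure only the spread between these cultures.

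LPS, a cell wall component of Gram-negative bacteria, is handed by the proteins LBP and CD14 to the receptor TLR4, which signals through the adaptors MyD88 and TRIF. These activate NF-kB, AP-1 and IRF transcription factors, and the TRIF arm induces type I interferon and with it a set of antiviral genes. Ifn-γ acts on a partly shared set of genes, including those of guanylate-binding proteins and of antigen presentation. Classically (M1) activated macrophages secrete inflammatory cytokines, make nitric oxide and itaconate, run glycolysis and slow oxidative metabolism and division. Bmal1 pairs with CLOCK to drive the circadian genes Per, Cry and Nr1d, which feed back on it.

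The deleted gene was read first. Arntl had 3.13, 3.39 and 3.03 TPM in M-BKO M1 cultures and 2.31, 1.97 and 2.46 TPM in M-BKO controls, against 5.47, 4.81 and 5.8 TPM in WT M1 cultures and 7.71, 7.25 and 7.54 TPM in WT controls. The M-BKO libraries were thus all below the WT libraries of the same treatment, although a gene-level TPM covers all exons and not the deleted exon alone. Lyz2, the lysozyme gene into which this Cre is inserted, had 52.3 to 78.8 TPM in the M-BKO M1 cultures and 47.0 to 61.1 TPM in the M-BKO controls, while it averaged 14993 ± 133 TPM in WT M1 cultures and 33007 ± 1475 TPM in WT controls (SD, n = 3 each). These groups do not allow the loss of Bmal1 and the inserted Cre to be told apart. The 9 macrophage markers were all expressed, with a summed level of 5453 to 5602 TPM in M1 and 6167 to 6329 TPM in control cultures. Of other cell types, the neutrophil markers summed to 12.5 to 12.9 TPM in M1 and 42.7 to 52.1 TPM in controls, with Retnlg at 0, and B cell markers to 1.41 to 1.69 against 3.87 to 5.92 TPM. Endothelial markers summed to 41.1 to 48.8 TPM in M1 and 13.1 to 13.9 TPM in controls, with Tek at 0, and dendritic cell markers to 58.7 to 66.2 against 62.4 to 67 TPM. The other 5 marker lists had sums under 7 TPM in every M-BKO library. The part of these cells in the results was not tested, and in bulk RNA fewer cells of a type and less RNA per cell cannot be told apart. The lowest correlation of a library with its own group was 0.998 among M-BKO and 0.994 among WT libraries. WT control replicate 3 had the widest spread about its group mean (SD of log2 residuals 0.142, against 0.0777 to 0.0863 in the M-BKO libraries).

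The promoters of 8 genes that stand for the main directions of the response are shown as the 150 bases before the transcription start, from the RefSeq annotation of GRCm38.p6 (the mm10 assembly), read along the gene. Capitals mark motif matches, which are descriptions of letters and not measured binding. Cxcl2 (a neutrophil-attracting chemokine, chr5:90903749-90903898 on the plus strand) and Il6 (chr5:30012964-30013113 on the plus strand) are shown for genes near 0 in control cultures, with their NF-kB sites (GGGA, any 2 bases, TTCC) in capitals, where Cxcl2 has 2 overlapping matches that begin 97 and 96 bases before the start.
Cxcl2: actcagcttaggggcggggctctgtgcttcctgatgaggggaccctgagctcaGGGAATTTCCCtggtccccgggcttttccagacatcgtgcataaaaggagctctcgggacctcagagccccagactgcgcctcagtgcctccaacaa
Il6: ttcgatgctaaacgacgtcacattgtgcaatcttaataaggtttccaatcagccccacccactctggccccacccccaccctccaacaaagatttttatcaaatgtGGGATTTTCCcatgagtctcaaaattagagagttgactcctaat
Isg15 (chr4:156200819-156200968 on the minus strand) stands for the antiviral genes that rose, and Gbp2 (chr3:142620513-142620662 on the plus strand) and Igtp (chr11:58199406-58199555 on the plus strand) for the GTPase genes that fell. Capitals mark the interferon-stimulated response element (GAAA, any 2 bases, GAAA, or its complement), with 3 overlapping matches in Isg15, and in Igtp also a GAS element (TTC, any 3 bases, GAA) before it.
Isg15: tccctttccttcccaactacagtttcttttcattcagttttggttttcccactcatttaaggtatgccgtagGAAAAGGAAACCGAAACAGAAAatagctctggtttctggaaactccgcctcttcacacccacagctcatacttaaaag
Gbp2: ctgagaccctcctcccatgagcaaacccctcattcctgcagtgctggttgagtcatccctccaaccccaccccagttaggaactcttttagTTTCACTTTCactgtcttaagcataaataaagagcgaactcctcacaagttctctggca
Igtp: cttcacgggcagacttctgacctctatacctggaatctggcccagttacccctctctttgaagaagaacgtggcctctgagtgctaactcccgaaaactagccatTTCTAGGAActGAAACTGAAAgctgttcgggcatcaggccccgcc
Hspa1a (chr17:34972157-34972306 on the minus strand) and Hspa1b (chr17:34959239-34959388 on the minus strand) are the near-identical pair of inducible HSP70 genes. The windows are the same in 149 of 150 bases, and the short form of the heat-shock element (GAA, any 2 bases, TTC) is in capitals. Cdk1 (chr10:69352913-69353062 on the minus strand), a kinase that drives mitosis, is shown with its E2F site (TTTCGCGC) and its 2 matches to the cell cycle homology region (TTTGAA) in capitals.
Hspa1a: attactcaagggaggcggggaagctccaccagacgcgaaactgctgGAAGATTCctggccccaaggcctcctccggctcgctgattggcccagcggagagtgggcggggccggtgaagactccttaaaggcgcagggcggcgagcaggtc
Hspa1b: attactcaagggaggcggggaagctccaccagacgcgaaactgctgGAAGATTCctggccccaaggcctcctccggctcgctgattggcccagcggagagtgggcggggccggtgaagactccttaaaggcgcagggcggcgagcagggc
Cdk1: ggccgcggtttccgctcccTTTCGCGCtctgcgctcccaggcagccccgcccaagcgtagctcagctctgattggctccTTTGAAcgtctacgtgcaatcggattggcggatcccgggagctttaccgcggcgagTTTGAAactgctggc

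The same motifs were counted on both strands in windows of 250 bases before to 50 bases after the start, as a description without a test. An interferon-stimulated response element was in 10 of the 11 matched promoters of the guanylate-binding and immunity-related GTPase list (90.9%) and in 14 of 26 of the antiviral list (53.8%), against 3.99% of all 27018 genes with a promoter in the table. The list that fell in M-BKO M1 cultures and the list that rose thus both held this motif at a share above that of all genes. GAS elements were in 54.5% and 30.8% of the same lists and in 9.55% of all genes. An NF-kB site was in 4 of 14 chemokine promoters (28.6%) and 4 of 17 cytokine promoters (23.5%), against 1.63% of all genes and 2.15% of the genes called higher. The short heat-shock motif was in 9 of 18 promoters of the chaperone list (50%) and 9.04% of all, an E2F site (TTTGGCGC or TTTCGCGC) in 11 of 47 cell cycle promoters (23.4%) and 0.929% of all, and the cell cycle homology region in 18 of these 47 (38.3%) and 20.2% of all.

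Most expressed genes changed after LPS. A gene was called when the limma test gave a Benjamini-Hochberg adjusted p under 0.05 with a fold over 1.5, and log2 changes are differences of log2(TPM + 1), M1 minus control, which understate the change of low genes. Of the 10651 genes, 1307 (12.3%) rose, 4529 (42.5%) fell and 4815 (45.2%) were not called, while over all 10822 genes tested in the series the same test called 12.3% higher and 42.3% lower. TPM are shares of a fixed total, and the median log2 change of the 10651 genes was -0.45. Scaling libraries by the median ratio moved that median to -0.0083, and then 2360 genes were called higher and 2379 lower (22.2% and 22.3% of all genes tested). Rises made up 22.4% of calls on TPM and 49.8% after scaling. No gene was called in opposite directions, all 1307 rises were called in both, and 2379 of the 4529 falls remained called, so the counts of the gene lists described are given on both scales.

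The rises were fewer and larger. Over 4-fold, 282 genes were called higher and 410 lower, over 16-fold 47 and 9, and over 64-fold 13 and 0. The 1307 genes called higher held 31.3 to 31.5% of all TPM in M1 cultures and 8.36 to 8.47% in control cultures, and the 4529 called lower held 19.8 to 20% against 41.2 to 41.3%. The direction of these shifts follows from how the genes were chosen, so only their size is described. Taking each gene by whichever group mean was the greater, 222 genes reached 1000 TPM and 26.6% of them were called higher and 36.5% lower, and for the 3077 at 1 to 10 TPM these shares were 10.9% and 48.1%. The values of the M1 and control libraries did not overlap for 9537 genes (89.5%), which is near the share over all genes tested, 89.3%. Part of the calls follows from the minimum level, since 215 genes were under 1 TPM in every control library and could enter only through M1 cultures (202 were called higher), and 560 were under 1 TPM in every M1 library (508 were called lower).

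**Figure D1:**
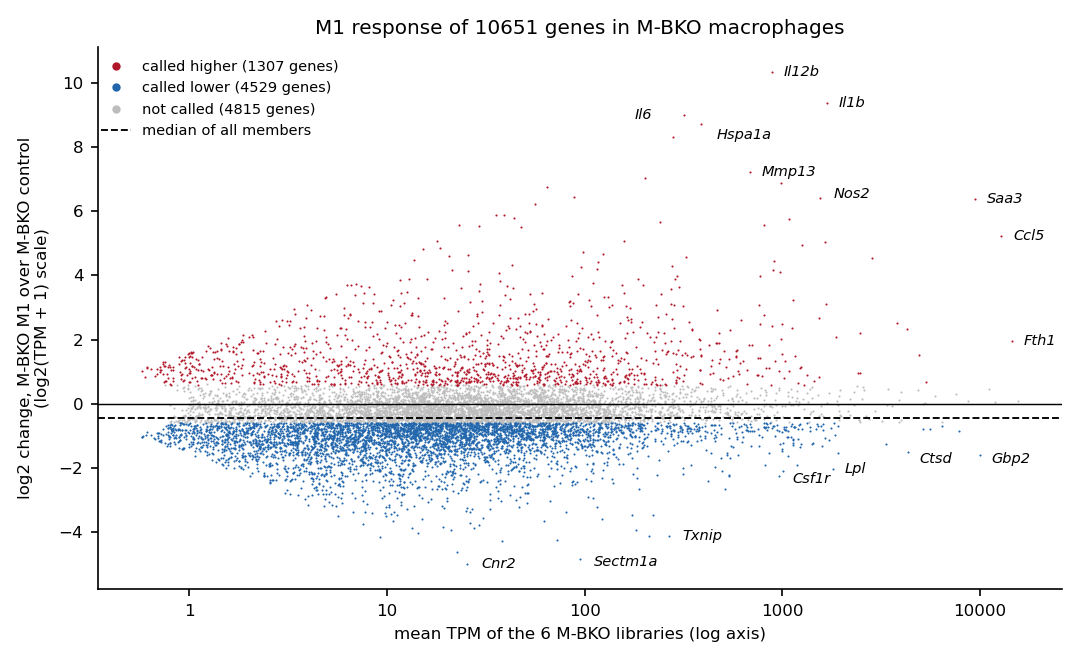
Log2 change (M-BKO M1 minus M-BKO control, on log2(TPM + 1)) against the mean TPM of the 6 libraries on a log axis for the 10651 genes, with called genes coloured by direction and a dashed line at the median of -0.45. The rises reach 10.35 (Il12b) and the falls -5.00 (Cnr2).

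Il12b, the p40 subunit of the cytokines that drive Th1 and Th17 cells, had the largest rise. It had 1905, 1572 and 1843 TPM in M1 cultures and 0.499, 0.189 and 0.407 TPM in controls (log2 change 10.35, SE 0.14, limma adjusted p = 2.1e-16). Il1b, which encodes the pro-form of a fever-inducing cytokine, followed with 3385, 3296 and 3338 against 3.82, 4.86 and 3.51 TPM (log2 change 9.37, adjusted p = 1.6e-16), and Il6 with 656, 597 and 658 against 0, 0.254 and 0.547 TPM (8.997, adjusted p = 1.4e-15). These cytokines were near the lower end of the range in every control library and among the abundant transcripts in every M1 library. Hspa1a and Hspa1b rose by 8.72 and 8.31, the collagenase gene Mmp13 by 7.23 and the chemokines Cxcl2 and Ccl3 by 7.02 and 6.88. Further down the largest rises stood Il1a (6.74), the inducible nitric oxide synthase Nos2 (6.42), the acute-phase gene Saa3 (6.38), the stress cytokine Gdf15 (6.23), the adhesion receptor Slamf1 (5.89) and the adenosine receptor Adora2a (5.87).

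The largest falls were of genes with various roles. Cnr2, the cannabinoid receptor of immune cells, had 0.566, 0.684 and 0.564 TPM in M1 cultures and 50.4, 49.2 and 51.2 TPM in controls (log2 change -5.00, adjusted p = 1.5e-15). Sectm1a fell by 4.83, and Tlr12, which senses profilin of protozoa, fell by 4.61 to 0.745, 1.05 and 0.765 TPM against 45.3, 43.9 and 43.6 TPM. Falls of a like size were those of Klhl6 (-4.27), Nfam1 (-4.25), Tlr11 and Txnip (-4.13 each), the antimicrobial ribonuclease gene Rnase6 (-4.12) and the lectin Clec10a (-4.03). Txnip, a thioredoxin-binding arrestin that restrains glucose uptake, was the most abundant of these, with 26.7, 26.6 and 30.3 TPM in M1 cultures and 501, 507 and 502 TPM in controls.

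By level, the most abundant transcripts of M1 cultures were Ccl5 (24960 ± 616 TPM), the ferritin heavy chain Fth1 (22983 ± 1123), Saa3 (18580 ± 1087) and B2m (16116 ± 339; SD, n = 3 each). In control cultures they were B2m (15032 ± 235), Gbp2 (14967 ± 201) and the ferritin light chain Ftl1 (11621 ± 248). Saa3 stood at 202, 223 and 243 TPM in controls, so it entered the most abundant transcripts with LPS, whereas Gbp2 left them with 4963, 4794 and 5031 TPM in M1 cultures. Actb, a cytoskeletal gene often used for reference, had 8927 ± 342 TPM in M1 and 8434 ± 156 TPM in control cultures and was not called.

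**Figure D2:**
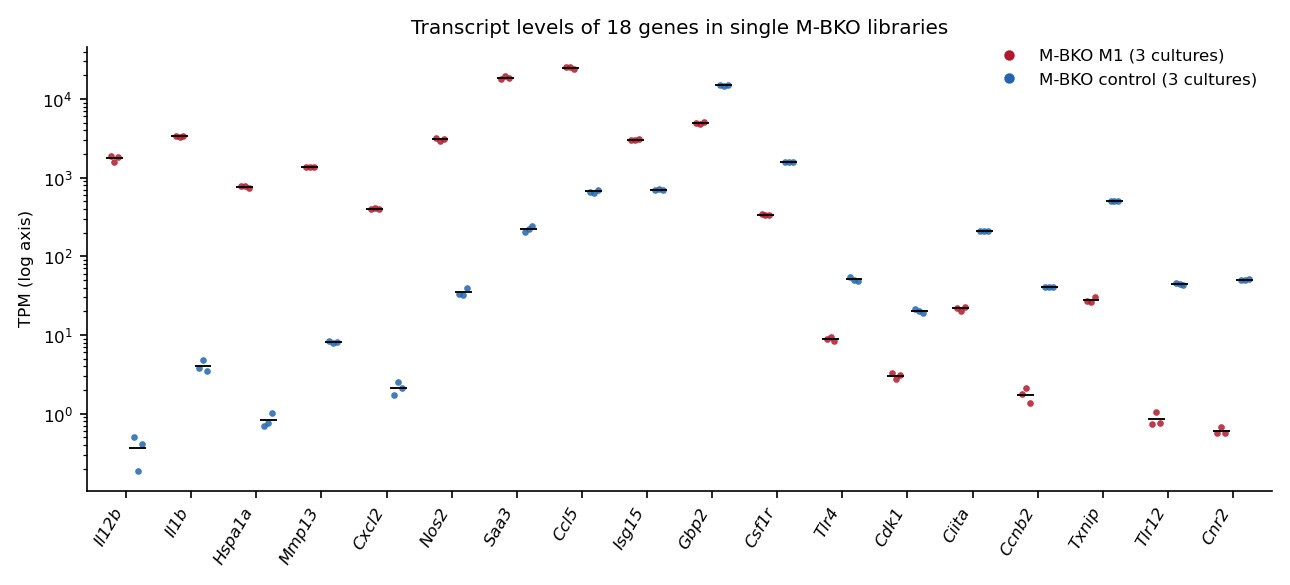
TPM on a log axis of 18 genes in the 3 M-BKO M1 libraries (left of each pair) and the 3 M-BKO control libraries, with bars at the group means. Il12b stands at 1572 to 1905 TPM against 0.189 to 0.499 TPM and Cnr2 at 0.564 to 0.684 against 49.2 to 51.2 TPM, and no gene shown has overlapping groups.

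Of 24 expressed inflammatory cytokine genes, 17 rose and 3 fell (19 and 3 after scaling), with a median log2 change of 2.47 against -0.45 over all genes. Of the 24, 7 were under 1 TPM in every control library and could enter only through M1 cultures. The count of rises and the median include these 7, and 1 gene was under 1 TPM in every M1 library. The summed level of the cytokine list was 12611 to 13070 TPM in M1 and 1391 to 1408 TPM in control cultures. Il1rn, the natural antagonist of the interleukin-1 receptor, rose by 5.05 to 3184 ± 63.5 TPM against 95 ± 1.38 TPM, and so reached about the level of Il1b itself. Tnf, the early inflammatory cytokine, had 1698, 1641 and 1744 TPM in M1 and 293, 312 and 303 TPM in control cultures, a rise of 2.48 that started from a level well above that of Il1b in the same controls. Il10, an anti-inflammatory cytokine, rose by 2.02 to 29.7, 32.4 and 31.5 TPM against 7.09, 6.49 and 7.14 TPM. Il12a, whose product pairs with that of Il12b, rose by 3.33 but to 9.79 ± 1.36 TPM, far below its partner. The falls were Il16 (-2.58), Tnfsf10 (-1.75) and Tnfsf14 (-0.97). Tnfsf10, the death ligand TRAIL, had 21.9 ± 2.28 TPM in M1 and 75.7 ± 3.06 TPM in control cultures.

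Chemokines, which draw leukocytes to a site, held more transcripts than the cytokines, 41880 to 42913 TPM in M1 and 8804 to 8890 TPM in control cultures. Of 21 genes, 15 rose and 4 fell (16 and 3 after scaling; median log2 change 2.11). Cxcl2 had 403, 413 and 393 TPM against 1.71, 2.55 and 2.11 TPM, and Ccl5, which attracts T cells and monocytes, 25328, 25302 and 24248 TPM against 661, 646 and 693 TPM (log2 change 5.23, adjusted p = 1.1e-17). Ccl4 rose by 5.56, Ccl22 by 4.2045, Ccl7 by 3.42 and Ccl9 by 2.30. The interferon-induced chemokine Cxcl10 was already at 2193 ± 28.0 TPM in Ifn-γ controls and had 2952 ± 260 TPM in M1 cultures, which was not past the fold on TPM and was called higher after scaling. Cxcl14 (-1.28), Ccl6 (-1.25), Ppbp (-1.09) and Pf4 (-0.90) fell on TPM, and 3 of these 4 kept the call after scaling. Several Ccl genes are near-identical neighbours, and reads that fit both may have been split between them.

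Receptors for chemokines and other attractants were divided. Of 14 chemoattractant receptors, 4 (28.6%) rose and 8 (57.1%) fell (4 and 5 after scaling). Of all genes described, 12.3% rose and 42.5% fell on TPM. Ccr7, which guides cells to lymph nodes, had 53.3, 47.6 and 49.0 TPM in M1 cultures and 1.78, 0.607 and 0.904 TPM in controls (log2 change 4.64), and Ccrl2 rose by 4.31. Cxcr4 rose by 1.23 and Ptafr by 0.65. Ccr2, the receptor for Ccl2 by which monocytes leave the marrow, fell by 2.94 to 7.7, 7.9 and 7.24 TPM against 72.4, 58.5 and 65.3 TPM. Ltb4r1, a leukotriene receptor, fell by 2.47 and Ccr1 fell by 1.43.

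The LPS receptor and most of its relatives were lower on TPM while the coreceptor was higher. Tlr4 had 8.92, 9.45 and 8.3 TPM in M1 cultures and 54.9, 49.7 and 48.0 TPM in controls (log2 change -2.39, adjusted p = 6.6e-11). Cd14 rose by 4.11, with 1836 ± 40.5 TPM against 106 ± 4.50 TPM. The MD-1 gene Ly86 and Cd180, which encode partners of each other that resemble the LPS receptor complex, both fell (-2.08 and -2.66), Cd180 to 140 ± 5.41 TPM against 887 ± 20 TPM. Of 12 Toll-like receptor genes in all, 7 (58.3%) fell and 2 rose (6 and 3 after scaling, median -0.97 on TPM). Those that rose were Tlr7, a receptor for single-stranded RNA (2.38, 69.9 ± 1.14 against 12.7 ± 0.42 TPM), and Tlr1, a partner of TLR2 for lipopeptides (0.79). Among the adaptors and kinases, 7 of 25 (28%) rose and 5 (20%) fell (13 and 3 after scaling). Of all genes described, 12.3% rose and 42.5% fell on TPM, and 22.2% rose and 22.3% fell after scaling. Traf1 rose by 3.63 and the inhibitory kinase gene Irak3 by 1.92, and the kinase gene Irak1 fell (-0.83) on TPM but was not called after scaling.

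NF-kB genes, many of which are themselves NF-kB targets, were mostly higher. Of 19 subunit and inhibitor genes, 12 rose and 2 fell (16 and 0 after scaling; median 1.27). The inhibitor gene Nfkbia had 910, 913 and 900 TPM in M1 and 182, 191 and 179 TPM in control cultures (log2 change 2.30), and the nuclear regulator Nfkbiz rose by 2.67, Tnip1 by 2.54 and the ubiquitin-editing enzyme gene Tnfaip3 by 2.22. The subunit gene Nfkb1 rose by 1.23 to 332, 312 and 345 TPM against 137, 140 and 142 TPM. Immediate-early and AP-1 factors rose in 16 of 26 cases and fell in 4 (20 and 4 after scaling; median 1.41). Batf rose by 3.45, Junb by 3.07 and Ier3 by 3.04, and Fos, the partner of JUN in the first wave after a stimulus, was lower, with 22.8 ± 1.42 TPM against 75.7 ± 2.25 TPM (-1.69). Negative regulators of signalling were also among the large rises. The phosphatase genes Dusp1, Dusp2 and Dusp5, which switch off MAP kinases, rose by 4.43, 4.33 and 3.45, Socs3 by 2.64 and the RNase gene Zc3h12a by 2.16, while Dusp10 fell by 2.04. In this list of 27 genes, 12 rose and 5 fell (14 and 3 after scaling).

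Interferon-related genes split. All 35 antiviral genes of the list were expressed, 23 rose and 0 fell by limma (31 and 0 after scaling; median 0.92), and 1 was lower at an unadjusted p under 0.05 with no fold asked. Oasl1 had 1734, 1642 and 1742 TPM in M1 and 89.1, 93.9 and 96.3 TPM in control cultures (log2 change 4.18), the viperin gene Rsad2 rose by 3.97, Mx2 by 3.06, Mx1 by 2.60 and the ubiquitin-like modifier Isg15 by 2.09, to 2976, 3003 and 3050 TPM against 700, 709 and 702 TPM. The 12 antiviral genes that were not called included Zbp1 (-0.43) at 571 ± 12.2 TPM against 771 ± 18.3 TPM. In contrast, 0 of 19 guanylate-binding and immunity-related GTPases, which attack vacuoles of intracellular microbes, rose by limma, also at an unadjusted p under 0.05, and 16 fell (0 and 13 after scaling), with a median of -1.2995 on TPM and -0.81 after scaling. Gbp2 had 4963, 4794 and 5031 TPM in M1 and 15057, 14736 and 15107 TPM in control cultures (-1.60, adjusted p = 2.3e-13), and Igtp 444, 413 and 461 TPM against 1273, 1276 and 1277 TPM (-1.54). Gbp8 (-2.94) and Gbp11 (-2.78) fell, and Gbp5 (1103 ± 75.8 against 1116 ± 32.8 TPM) was not called. The family sum was 10910 to 11773 TPM in M1 and 27383 to 27971 TPM in control cultures. Several of these GTPases are close copies of each other, so single values are less certain than the sum. Ifngr1, a chain of the Ifn-γ receptor, fell by 2.08 to 31.6 ± 1.09 against 137 ± 2.84 TPM. Irf7, a factor of the type I interferon response, rose by 2.68 to 2615, 2596 and 2711 TPM against 414, 421 and 403 TPM.

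**Figure D3:**
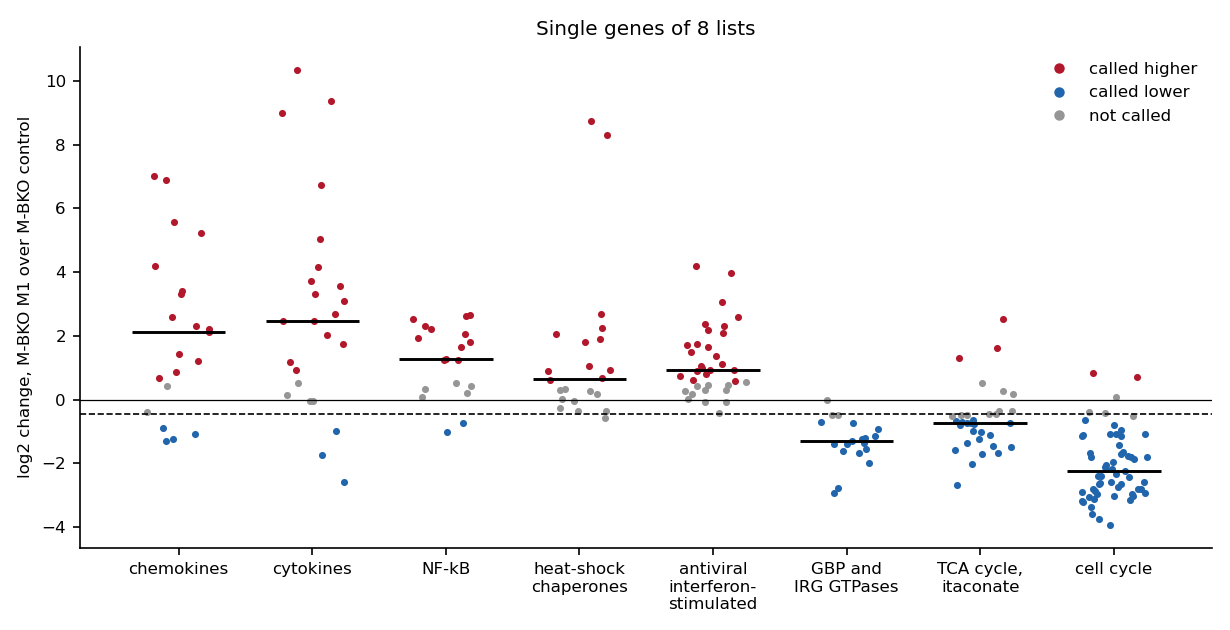
Log2 change (M-BKO M1 minus M-BKO control) of the single genes of 8 lists, 1 point per gene, with a black line at each list's median. The antiviral genes lie from -0.43 (Zbp1) to 4.18 (Oasl1), and the GTPases from -2.94 (Gbp8) to -0.02 (Gbp5).

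Among genes of antigen presentation, the master regulator of MHC class II and one of the class II chains moved in opposite directions. Ciita fell by 3.21 to 22.2, 20.4 and 22.8 TPM against 212, 210 and 207 TPM, and H2-Ab1, a class II chain, rose by 0.96 to 3262 ± 61.2 TPM against 1671 ± 42.0 TPM. H2-DMa (-1.08) and H2-DMb1 (-0.84), which encode the peptide exchange factor of class II, fell, H2-DMb1 on TPM only. The class II list held 1 rise and 4 falls among 9 genes (3 and 2 after scaling), and the class I list 2 and 3 among 15 (5 and 2 after scaling). The shares that fell on TPM were 44.4% and 20%, against 42.5% of all genes. The peptide editor Tapbpl fell by 1.53. Ligands for T cells rose in 10 of 15 cases and fell in 2 (12 and 1 after scaling; median 1.34). Cd40 had 2968, 2889 and 3123 TPM in M1 and 322, 363 and 348 TPM in control cultures (3.12), and Tnfsf9, Slamf7 and Cd83 rose by 2.68, 2.49 and 2.03. Cd274, which encodes the inhibitory ligand PD-L1, rose by 1.35, and the inhibitory receptor gene Havcr2 fell by 2.57.

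Metabolic genes of the M1 state were among the highest. Nos2 had 3150, 2886 and 3122 TPM in M1 and 33.0, 31.9 and 39.1 TPM in control cultures (log2 change 6.42, adjusted p = 1.1e-17). Slc7a2, the arginine transporter that feeds nitric oxide synthesis, rose by 5.06 and Gch1, the first enzyme of its cofactor tetrahydrobiopterin, by 2.11. Arg1, which competes for arginine in alternatively activated macrophages, was at 1.08 ± 0.225 TPM in M1 and 1.61 ± 0.317 TPM in control cultures and was not called. The spermidine synthase gene Srm fell by 1.87, and the list of arginine, nitric oxide and polyamine genes held 6 rises and 6 falls among 18 (7 and 2 after scaling). Irg1, whose enzyme makes itaconate from the TCA cycle intermediate aconitate, rose by 2.52 to 6542, 6322 and 6508 TPM against 1078, 1173 and 1137 TPM. On TPM most genes of its list went the other way: of 34 genes of the TCA cycle and itaconate, 21 (61.8%) fell and 3 rose. Of all genes described, 42.5% fell and 12.3% rose. After scaling 10 of the 34 fell, 5 rose and 19 were not called, against 22.3% lower and 22.2% higher over all genes. The list's median was -0.72 on TPM and -0.24 after scaling. Idh2, a mitochondrial isocitrate dehydrogenase, had 6.57, 5.64 and 5.76 TPM in M1 and 43.2, 43.1 and 45.9 TPM in control cultures (-2.69), and Suclg2 (-2.003), Idh1 (-1.71), Fh1 (-1.68) and Mdh1 (-1.58) fell as well.

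The glycolysis list moved both ways on TPM, where 12.3% of all genes described rose and 42.5% fell. It held 6 rises (22.2%) and 7 falls (25.9%) among 27 genes, with a median of 0.20. After scaling it held 16 rises and 5 falls with a median of 0.69, against 22.2% higher and 22.3% lower over all genes. The genes that rose included the glucose transporters Slc2a1 (1.89, to 400 ± 9.72 TPM against 107 ± 5.18 TPM) and Slc2a6 (1.83), the kinase Pfkfb3 (2.09) that raises the flux through phosphofructokinase, and the lactate exporter Slc16a3 (1.36). Pfkfb4 (-1.74) and Pfkfb2 (-1.501), relatives of Pfkfb3, fell, as did the muscle isoform Pfkm (-1.76) and Aldoc (-1.61). Ldha, which makes lactate, had 1481, 1515 and 1487 TPM in M1 and 1299, 1306 and 1343 TPM in control cultures. This was a small difference beyond the spread (log2 change 0.18, adjusted p = 8.4e-05) that did not reach the fold on TPM and was called after scaling. In the pentose phosphate pathway Pgd rose by 0.76 and H6pd fell by 2.27, with 1 rise and 3 falls among 8 genes (3 and 2 after scaling).

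Nuclear genes of the mitochondrion and of protein synthesis were often lower on TPM, and most of these calls depended on the scale. Of 70 respiratory chain and ATP synthase genes, 32 fell and 1 rose (3 and 4 after scaling), and the share that fell, 45.7%, was near the 42.5% of all genes described. The gene that rose on TPM was Ndufs4, a complex I subunit, with 174, 177 and 186 TPM in M1 and 69.3, 69.5 and 67.7 TPM in control cultures (1.36). Of 76 mitochondrial ribosomal genes 47 fell and 2 rose (18 and 6 after scaling), and Mrpl52 rose by 2.10 while Mrpl42 fell by 1.56. Among 81 cytosolic ribosomal genes 55 fell and 2 rose (3 and 4 after scaling), with a median of -0.72 on TPM and -0.23 after scaling. Their summed level was 54893 to 55630 TPM in M1 and 82164 to 82956 TPM in control cultures. The tRNA synthetases were lower on both scales, with 16 of 20 called lower by limma (9 after scaling) and 0 higher, also at an unadjusted p under 0.05. Yars (-2.14), Iars (-2.05) and Wars (-2.01) fell, Wars to 125 ± 6.36 TPM against 504 ± 8.30 TPM. Myc, a driver of ribosome synthesis and growth, fell by 1.47 to 2.39, 2.39 and 2.79 TPM against 9.79, 8.3 and 8.31 TPM, and the ribosome biogenesis genes Dkc1 (-1.94) and Wdr12 (-1.86) fell. Of the 33 genes of ribosome biogenesis, 21 fell and 0 rose by limma (11 and 2 after scaling), where 2 were higher at an unadjusted p under 0.05. Of 18 regulators of mitochondrial biogenesis, 9 fell and 2 rose (5 and 3 after scaling): Pparg (-2.24) and Ppargc1b (-1.18) fell on both scales and Ppard (0.82) and Esrra (0.75) rose.

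Genes of fatty acid oxidation were mostly lower on TPM, and those of cholesterol synthesis on both scales. The shares called lower on TPM were 65% and 81.8%, against 42.5% of all genes described. Of 20 fatty acid oxidation genes, 13 fell and 2 rose (9 and 3 after scaling), among them Hadh (-2.20), Acadm (-1.91) and Cpt1a (-1.86), the gate of fatty acids into the mitochondrion, which had 28.0, 25.8 and 29.6 TPM in M1 and 104, 103 and 103 TPM in control cultures. Acsl1, which activates fatty acids for storage or oxidation, rose by 1.35. Of 22 genes of cholesterol synthesis and uptake, 18 fell and 0 rose by limma (14 and 1 after scaling; median -1.15), where 1 was higher at an unadjusted p under 0.05. Dhcr7, which catalyses a final step of the pathway, fell by 2.86, as did Fdps (-1.87) and Pmvk (-1.82). The lipoprotein lipase gene Lpl fell by 2.02 to 713, 703 and 712 TPM against 3018, 2815 and 2802 TPM. The liver X receptor gene Nr1h3 rose by 1.4997 and Mylip, which degrades the LDL receptor, by 2.09. The list of liver X receptor, efflux and lipid synthesis genes held 5 rises and 5 falls among 18 (7 and 3 after scaling), with Dgat2, of triglyceride synthesis, up by 2.01 and Soat1, which esterifies cholesterol, by 0.91. Breakdown of branched-chain amino acids was lower in 12 of 19 genes and higher in 1 (9 and 2 after scaling), from Mccc2 (-2.21) to Bckdhb (1.45).

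Most genes of the hypoxic and oxidative stress lists were higher. Of 19 HIF-1 pathway genes, 14 rose and 0 fell by limma (18 and 0 after scaling; median 1.25), and 1 was lower at an unadjusted p under 0.05. Hif1a itself had 375, 363 and 385 TPM in M1 and 121, 115 and 114 TPM in control cultures (1.67), and the vasodilator Adm rose by 3.45, the oxygen sensor Egln3 by 2.67 and Bnip3 by 1.58. Of 21 Nrf2 antioxidant genes, 13 rose and 3 fell (16 and 2 after scaling; median 1.04). Hmox1, which degrades heme, had 5496, 5594 and 5274 TPM in M1 and 232, 228 and 239 TPM in control cultures (4.54, adjusted p = 8.2e-18). Slc7a11, the cystine importer, rose by 4.48, glutathione reductase Gsr by 3.17, Srxn1 by 3.06 and the peroxiredoxin Prdx1 by 2.33 to 7186, 7160 and 7096 TPM against 1452, 1366 and 1437 TPM. The selenoprotein Gpx1 (-2.08) and Mgst1 (-2.14) fell. With heme breakdown, iron genes rose in 9 of 18 cases and fell in 5 (10 and 3 after scaling): Fth1, which stores iron, by 1.95, the iron exporter Slc40a1 by 3.13 and lipocalin Lcn2, which binds bacterial siderophores, by 3.08. Transferrin (Trf, -1.505) and Steap3 (-1.98) fell.

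Many cytosolic chaperone genes rose, while those of the endoplasmic reticulum were not called higher on TPM and were called in both directions after scaling. Of all genes described, 12.3% rose and 42.5% fell on TPM, and 22.2% rose and 22.3% fell after scaling. Hspa1a had 785, 788 and 736 TPM in M1 and 0.696, 0.758 and 1.03 TPM in control cultures (log2 change 8.72, adjusted p = 4.8e-18), and Hspa1b 569, 578 and 526 TPM against 0.763, 0.689 and 0.812 TPM. Because these genes are almost identical, their separate values depend on how shared reads were divided. Of 22 genes in the list 12 rose and 0 fell by limma (16 and 0 after scaling; 4 were lower at an unadjusted p under 0.05; median 0.64), among the rises Hsph1 (2.24), Dnaja1 (1.92) and Hsp90aa1 (1.82). Of 20 genes of endoplasmic reticulum stress and folding, 0 rose by limma (2 were higher at an unadjusted p under 0.05) and 12 fell (3 and 4 after scaling), led by Pdia4 (-1.63), Atf6 (-1.61) and Sdf2l1 (-1.39). The integrated stress response, which shares the kinase PERK with this pathway, had 10 rises and 6 falls among 21 genes (11 and 4 after scaling). Gdf15 had 117, 120 and 99.1 TPM in M1 and 0.449, 0.51 and 0.549 TPM in control cultures, the phosphatase subunit Ppp1r15a rose by 3.69 and the factor Ddit3 by 1.59, while the PERK gene Eif2ak3 fell by 1.59. Of serine synthesis, Phgdh fell by 1.73 and Psat1 rose by 1.46, and the asparagine synthesis gene Asns (-1.5004) fell.

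Genes of cell division showed the most uniform falls. Of 59 genes of the cell cycle, DNA replication and mitosis, 53 fell and 2 rose (50 and 2 after scaling), and the median was -2.23 on TPM and -1.96 after scaling, against -0.45 and -0.0083 over all genes. Of these 59 genes, 21 were under 1 TPM in every M1 library. They could enter the list only through control cultures, so a rise could not be found for them. The mitotic cyclin Ccnb2 had 1.77, 2.11 and 1.36 TPM in M1 and 40.7, 40.2 and 40.5 TPM in control cultures (-3.93, adjusted p = 4.7e-13). Cdk1 had 3.28, 2.74 and 3.08 TPM against 21.5, 20.2 and 18.9 TPM (-2.40), and Ccna2 (-3.74), Top2a (-3.57), Prc1 (-3.36) and E2f2 (-3.18) fell. Tpx2, a spindle assembly factor, and Cdt1, which licenses replication origins, were the members that rose, by 0.84 and 0.72, Tpx2 to 35.3, 31.6 and 36.3 TPM against 17.7, 19.5 and 19.0 TPM. DNA repair genes fell in 34 of 42 cases and rose in 0 by limma, also at an unadjusted p under 0.05 (24 and 0 after scaling), among them Lig1 (-2.53) and Atm (-2.04). Of these 42 genes, 11 were under 1 TPM in every M1 library and likewise could enter only through control cultures. Among G1 regulators, 8 of 21 rose and 7 fell (11 and 5 after scaling). The cyclin Ccnd2 rose by 3.23 while Ccnd1 fell by 2.32, to 40.5 ± 2.29 TPM against 205 ± 6.56 TPM, and the inhibitors Cdkn1a and Cdkn2b rose by 1.39 and 2.45 and Cdkn2c fell by 2.70. Growth arrest genes Gadd45b and Gadd45g rose by 3.98 and 2.29.

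Several clock genes were higher in M1 than in control cultures of both genotypes. Of 18 clock genes expressed in M-BKO cells, 10 rose and 0 fell in WT cultures (median 0.79). In M-BKO cultures 9 of the 18 (50%) rose and 0 fell by limma, also at an unadjusted p under 0.05. The median there was 0.65 on TPM, and after scaling 11 rose and 0 fell. Of all genes described, 12.3% rose on TPM and 22.2% after scaling. Bhlhe40 and Bhlhe41, repressors that bind E-boxes, rose by 2.44 and 1.26, the repressor Nfil3 by 1.81 and the period gene Per1 by 1.76, with 32.1 ± 0.693 TPM in M1 and 8.76 ± 0.256 TPM in control cultures. Nr1d1 and Nr1d2, the REV-ERB repressors of Bmal1, rose by 1.28 and 1.20, but reached no more than 1.85 ± 0.34 and 3.3 ± 0.137 TPM in M1, against 0.17 ± 0.0816 and 0.886 ± 0.283 TPM in control cultures. The cryptochrome Cry1 rose by 0.87 to 45.3, 43.7 and 48.6 TPM against 23.9, 25.6 and 24.4 TPM. Arntl itself was 3.18 ± 0.189 TPM in M1 and 2.24 ± 0.252 TPM in control cultures (log2 change 0.37, adjusted p = 0.00075), under the fold on TPM and called higher after scaling.

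Macrophage receptors and lineage factors moved in both directions. Csf1r, the receptor for the growth factor of macrophages, had 340, 336 and 333 TPM in M1 and 1572, 1600 and 1584 TPM in control cultures (-2.23, adjusted p = 1.1e-15). Of 27 colony-stimulating factor and cytokine receptors, 12 (44.4%) fell and 3 rose (11 and 6 after scaling), near the 42.5% that fell among all genes, among them Il21r (-2.70), Il18rap (-2.20) and Il12rb2 (-1.94). Of 26 myeloid lineage factors, 9 rose and 9 (34.6%) fell (12 and 7 after scaling). Spic, known from macrophages that recycle iron, was up by 5.78, with 85.3, 90.3 and 84.6 TPM in M1 and 0.539, 0.364 and 0.941 TPM in control cultures, Cebpb rose by 3.15 and Ets2 by 2.79, and Id3 (-3.09), Klf2 (-2.54), Mef2c (-2.29) and Cebpa (-1.94) fell. Uptake receptors were divided in the same way, with 8 rises and 15 falls among 27 (10 and 13 after scaling). Marco, a scavenger receptor for bacteria, rose by 5.67 to 480, 446 and 486 TPM against 7.31, 10.3 and 7.44 TPM and Clec4e, which senses mycobacterial lipid, by 4.45, while the mannose receptor Mrc1 (-2.63), Scarb1 (-2.58), Trem2 (-2.24) and the beta-glucan receptor Clec7a (-2.18) fell. Of the Fc receptors, the inhibitory Fcgr2b rose by 0.61 and Fcgr3 (-1.13) and the neonatal receptor Fcgrt (-2.23) fell.

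Secreted proteases, lipid mediators and lysosomal genes moved in both directions. Mmp13 had 1361, 1381 and 1345 TPM in M1 and 8.3, 7.79 and 8.16 TPM in control cultures (7.23, the smallest adjusted p among the genes named, 5.4e-19), and the coagulation genes Procr and F10 rose by 4.96 and 4.66, Thbs1 by 3.32 and Mmp14 by 3.04. The list of matrix proteases, inhibitors and coagulation genes held 12 rises and 10 falls among 27 (12 and 9 after scaling). Plau, the urokinase, fell by 1.88 and F13a1 fell by 2.20. Among prostaglandin and leukotriene genes, the inducible cyclooxygenase Ptgs2 rose by 5.75 to 2154, 1984 and 2204 TPM against 37.1, 39.4 and 38.7 TPM and Ptges, which makes prostaglandin E2, by 3.39. Of 18 genes of this list, 4 rose and 8 (44.4%) fell (6 and 8 after scaling). On TPM the share that fell was near the 42.5% of all genes, and after scaling 22.3% of all genes fell. Among the falls were the thromboxane synthase Tbxas1 (-2.64), Alox5ap (-2.41), needed for leukotrienes, and the constitutive cyclooxygenase Ptgs1 (-1.72). Lysosomal genes were called lower in 21 of 41 cases and higher in 2 on TPM (10 and 10 after scaling). Ppt1 (-1.68), Lipa (-1.54) and the cathepsin Ctsd (-1.502) fell on both scales, Ctsd to 2243 ± 42.1 TPM against 6356 ± 55.4 TPM. Proteasome genes as a group were near their control level on TPM, with 2 rises and 4 falls among 46 and a median of 0.04, which became 20 rises and 2 falls after scaling.

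**Figure D4:**
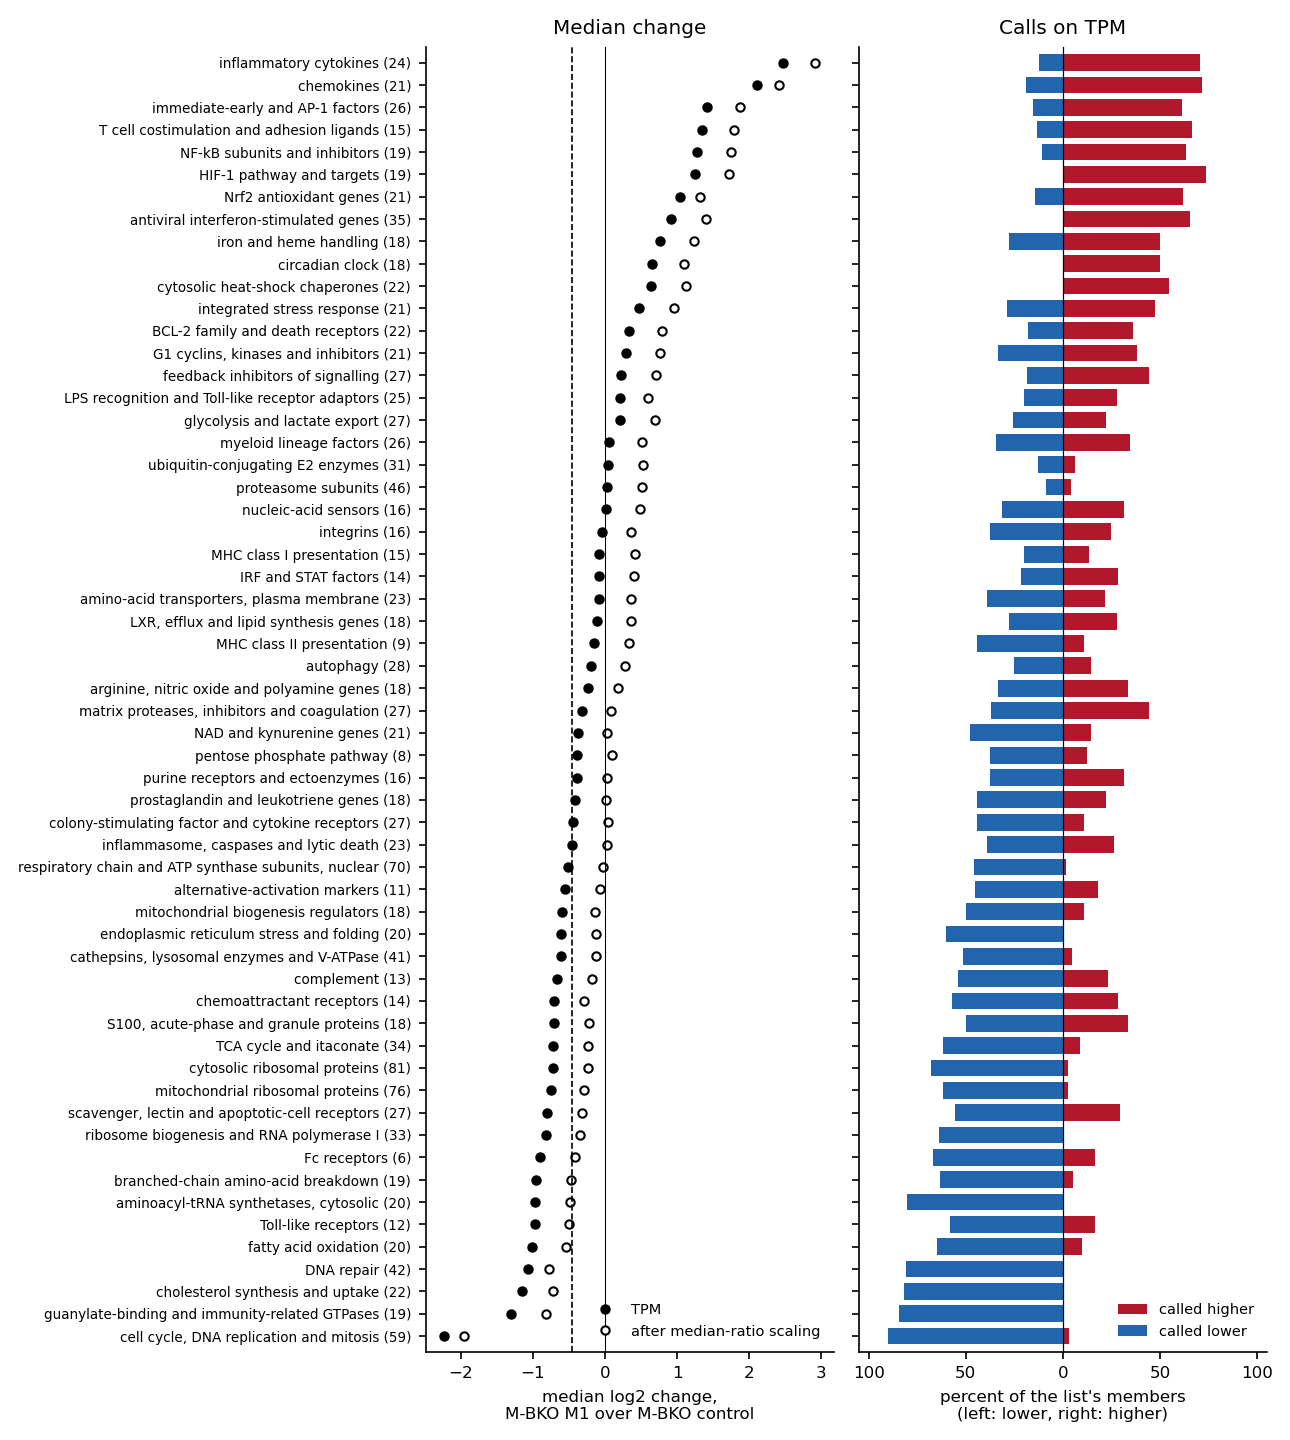
Median log2 change (M-BKO M1 minus M-BKO control) of 58 gene lists on TPM (filled) and after median-ratio scaling (open), beside the percent of each list's expressed genes called lower (left) and higher (right) on TPM. Cytokines (2.47) and chemokines (2.11) are at the upper end and the cell cycle list (-2.23) at the lower end, and scaling moves the lists up together.

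The M1 response of WT cultures serves as a reference for what was particular to M-BKO cells. The response itself was largely shared: of the 5836 called genes, 5828 had the same sign in WT and 4879 (83.6%) had log2 changes that differed by under 0.25 between the genotypes. The difference between the M-BKO and the WT response was tested as an interaction in the same limma fit. Over all genes tested, 0.536% had a called difference above 0 and 0.841% below 0, and of the 10651 genes described 56 were above and 90 below (72 and 77 after scaling). Genes called in M-BKO cultures but not in WT numbered 527, and the difference itself was called for 21 of them. Median-ratio scaling kept the direction of the 20 largest differences described here. These counts rest on few cultures: over all 10822 genes fitted 58 differences were above 0 and 91 below, and without M-BKO control replicate 2 there were 27 and 29. Leaving out M-BKO M1 replicate 1, 2 or 3 gave 34, 32 and 28 above and 52, 41 and 38 below, leaving out M-BKO control replicate 1 or 3 gave 30 and 35 above and 34 and 40 below, and leaving out WT M1 replicate 2 or 3 gave 37 and 31 above and 47 and 42 below. Without WT control replicate 1, 2 or 3 there were 78, 49 and 74 above and 132, 54 and 133 below, and without WT M1 replicate 1 there were 58 and 75.

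Cry1 was the clock gene besides Arntl with a called difference. Its 45.9 ± 2.52 TPM in M-BKO M1 and 24.6 ± 0.874 TPM in M-BKO control cultures compare with 16 TPM and 4.79 TPM on average in WT, so it was higher in M-BKO cells on both sides and rose less (0.87 against 1.56, difference -0.69, adjusted p = 0.0022). For Arntl the response was 0.37 in M-BKO and -0.42 in WT cells (difference 0.79, adjusted p = 0.0039). Lyz2 was not called in M-BKO cells (64.5 ± 13.4 against 54.9 ± 7.2 TPM) and fell by 1.14 in WT.

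Some called differences came with a response in the opposite direction or with none in WT. Ccne1, the cyclin of S phase entry, had 29.5, 29.4 and 29.0 TPM in M-BKO M1 and 15.2, 15 and 16.9 TPM in M-BKO control cultures, against 9.08, 8.51 and 9.13 TPM in WT M1 and 12.3, 12.1 and 14.3 TPM in WT control cultures (difference 1.35, adjusted p = 8.9e-06). All M-BKO libraries were above the WT libraries. Ctsl, a lysosomal cathepsin, fell by 0.86 on TPM in M-BKO cells, with 322, 342 and 329 TPM against 591, 604 and 607 TPM, and had 606, 659 and 618 TPM against 589, 610 and 641 TPM in WT (difference -0.89, adjusted p = 8.1e-06). Its control levels overlapped between the genotypes, so that the difference lay in the M1 cultures. Erdr1 had 29.4, 25.2 and 17.6 TPM in M-BKO M1 and 2.63, 2.37 and 2.81 TPM in M-BKO control cultures, and was listed at 0 in all WT controls and at 0 to 0.267 TPM in WT M1 cultures (difference 2.60, adjusted p = 1.9e-05). Trpa1, an ion channel gene listed at 0 in all 6 WT libraries, had 1.64, 1.69 and 1.59 TPM in M-BKO M1 and 6.08, 5.06 and 5.09 TPM in M-BKO control cultures (difference -1.27, adjusted p = 5.5e-05). With a pseudocount of 0.1 in place of 1 the difference of Erdr1 was not called (adjusted p = 0.064). Genes at or near 0 in a whole genotype can differ in response on the log2(TPM + 1) scale through their level alone.

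Il1a rose in both genotypes and more in M-BKO, with 129, 130 and 127 TPM in M-BKO M1 and 0.247, 0.234 and 0.151 TPM in M-BKO control cultures, against 80.8, 73.6 and 75.6 TPM in WT M1 and 0.14, 0.387 and 0.28 TPM in WT control cultures (difference 0.81, adjusted p = 0.0016; 0.14 with a pseudocount of 0.1). Slc7a11 (27.0 ± 1.95 TPM in M-BKO M1 and 16.9 TPM on average in WT M1) and the ferroxidase ceruloplasmin gene Cp (34.9 ± 0.795 and 27.6 TPM) also rose more, by 0.64 and 0.65. The chromatin protein gene Hmga1 and Igfbp4, which binds insulin-like growth factors, rose less in M-BKO by 0.85 each, the integrin gene Itgb5 fell more by 0.91, and Ccl24 rose less by 0.87. The calls of Slc7a11 and Ccl24 were lost with a pseudocount of 0.1 (adjusted p = 0.29 and 0.066), without the filter on low values (0.069 and 0.057) and without any one of several cultures, each M-BKO M1 culture among them. Cx3cr1, the fractalkine receptor, had 0.485, 0.422 and 0.402 TPM in M-BKO M1 and 9.01, 7.76 and 8.06 TPM in M-BKO control cultures, while every WT library was under 1 TPM (difference -2.08, adjusted p = 8.9e-06). The V-ATPase subunit gene Atp6v0c rose in WT (67.2 against 12.7 TPM) and was not called in M-BKO cells (25.2 ± 3.41 against 20.6 ± 5.29 TPM; difference -2.05, adjusted p = 0.0024), and Eno1 fell on TPM in M-BKO cells and was not called in WT (difference -0.95). The most distant point in the plot of both responses, Gm5643_1, was singled out after its values were seen: it had 36.4, 33.0 and 41.9 TPM in M-BKO M1 and 7.53, 19.3 and 16.6 TPM in M-BKO control cultures, with the reverse order in WT (difference 4.26, adjusted p = 0.0059) and a wide spread between cultures.

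**Figure D5:**
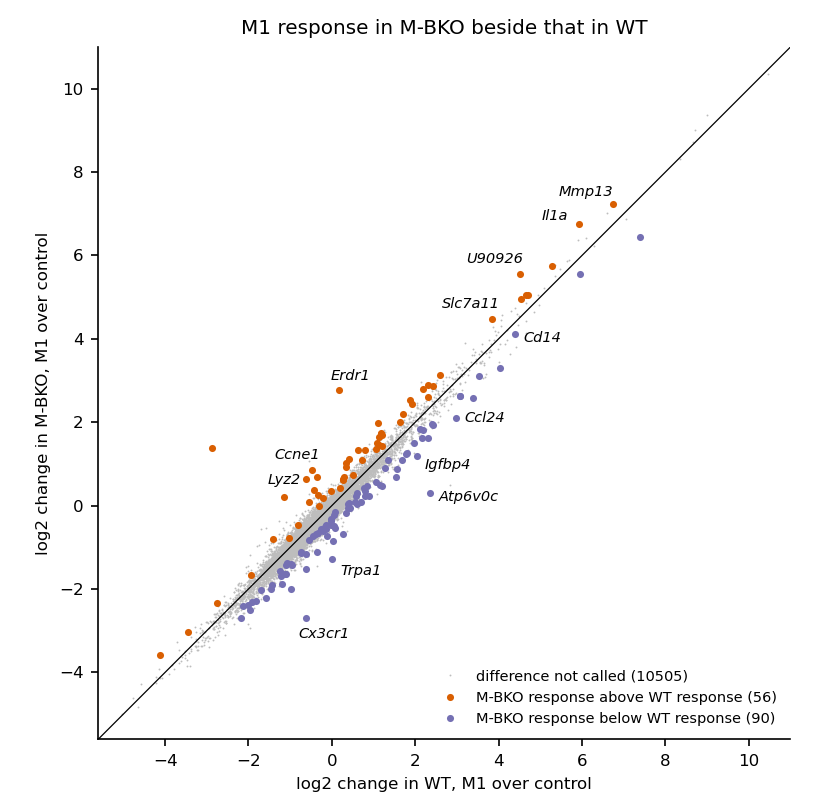
Log2 change after M1 activation in M-BKO cultures (vertical) against that in WT cultures (horizontal) for the 10651 genes, with the 56 called differences above 0 and the 90 below 0 coloured and the others in grey. Most genes lie along the diagonal, and Erdr1 (2.60), Lyz2 and Ccne1 (1.35 each) lie above it and Cx3cr1 (-2.08) and Atp6v0c (-2.05) below.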

How the data were processed

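RNA of 12 macrophage cultures (3 each of M-BKO M1, M-BKO control, WT M1 and WT control) was sequenced from stranded TruSeq libraries. The authors mapped reads to mm10 in CLC Genomics Workbench, allowing up to 5 hits per read, and deposited one table of TPM by gene. The sources used here do not say whether counting used strand. TPM keep no depth, so the depth is unknown and precision was taken from the spread between cultures. Other deposited tables hold the authors' fold changes of group averages, p-values and FDR and were not used.

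All 10822 genes that reached 1 TPM in 3 or more of the 12 libraries were fitted on log2(TPM + 1) in R 4.3.3 with limma 3.58.1, with 4 group means, a variance trend and 8 residual degrees of freedom, and p-values were adjusted by Benjamini-Hochberg over all of them. An M1 response needed a fold over 1.5 besides an adjusted p under 0.05 to be called, and the interaction (M-BKO response minus WT response) needed an adjusted p under 0.05 alone. The fit was tested on simulated data. Figures were drawn with python 3.11.15, pandas 2.3.3 and matplotlib 3.10.9. The members and the 58 gene lists were chosen with earlier results of these data known. Named are the 15 largest rises and falls of called genes that reached 5 TPM, did not overlap between groups and kept the call after scaling (predicted genes left out), up to 4 called members per direction of each list and 2 more by adjusted p, each list's highest and lowest member, the 10 most abundant genes of each M-BKO group, the 10 largest interactions per direction and genes the study names. Cdk1, Cxcl10, Il10, Il12a and Gm5643_1 fall outside this rule and were picked once their values had been seen. Some genes that the rule selects are not described, and a few results are not reported here.

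Promoters are those of RefSeq GRCm38.p6, where 8599 of the 10651 genes (80.7%) matched, 538 by an older symbol. The short heat-shock motif was added after the promoters were seen. Alternatives were the pseudocount, the minimum level, the scaling (median ratio or quantile), the variance model, the fold threshold, the libraries fitted, each library left out and a replicate block.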

Additional observations from a re-analysis of the deposited data

Results flagged for a closer look

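For each of the 47 genes below, the log2 response to M1 activation in M-BKO cultures minus that in WT cultures differed from 0 in the limma interaction test at an adjusted p under 0.05. Each value is that difference on log2(TPM + 1). How firmly a difference stands depends on the cultures kept, as given in the report.

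Among secreted mediators and their receptors, the difference was 0.81 for Il1a, 0.35 for the interleukin-1 receptor antagonist gene Il1rn, 0.50 for complement factor B (Cfb), -0.38 for Ccl4, -0.87 for Ccl24, -0.62 for Il18rap, -0.52 for Il21r and -2.08 for Cx3cr1. For the feedback inhibitor Socs3 it was -0.44, for the LPS co-receptor Cd14 -0.28, for the RNA sensor Tlr13 0.42, for the DNA-sensor family gene Ifi205 0.52, for the antiviral gene Mx1 0.30, for the inhibitory Fc receptor Fcgr2b 0.34 and for the peptide transporter Slc15a3 -0.26.

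In clock, cycle and chromatin genes it was 0.79 for Arntl, -0.69 for Cry1, 1.35 for Ccne1, -0.39 for Ccnd1 and -0.85 for Hmga1. Lyz2, the gene that carries the Cre, had 1.35.

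Metabolic and transport genes included the fatty acid activating enzyme Acsl1 (0.56), Eno1 (-0.95), Psat1 of serine synthesis (0.32), the nucleoside phosphorylase Pnp (0.22), the cystine transporter Slc7a11 (0.64), the arginine transporter Slc7a2 (0.39), the iron exporter Slc40a1 (0.53), Cp (0.65), the NAD glycohydrolase Bst1 (0.27), the ATP-degrading ectoenzyme Entpd1 (-0.29) and the lysosomal genes Atp6v0c (-2.05), Ctsl (-0.89) and Pla2g15 (-0.34).

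The stress-response genes Ndrg1 and Nupr1 had -0.55 and -0.47. Genes of the matrix, adhesion and coagulation were Mmp13 (0.49), Procr (0.42), Itgb5 (-0.91), Igfbp4 (-0.85), the transglutaminase Tgm2 (-0.53) and the caveolin gene Cav1 (0.70). Ptgs2 had 0.48 and the palmitoyltransferase gene Zdhhc2 0.70. For Erdr1 the difference was 2.60 and for Trpa1 -1.27. U90926 had 1.03, with 45.5, 46.9 and 45.9 TPM in M-BKO M1 and 20.1, 25.7 and 24.3 TPM in WT M1 cultures. It was listed at 0 in all M-BKO controls and at no more than 0.176 TPM in WT controls, and its difference was not called with a pseudocount of 0.1 (adjusted p = 0.12).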

How the results depend on the processing

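Over the 10822 genes fitted, 1333 were called higher and 4582 lower in M-BKO M1 than in M-BKO control cultures, and 58 differences from the WT response were above 0 and 91 below. Median-ratio scaling gave 2402 genes higher and 2410 lower and quantile normalization 2148 and 2641. Without a fold threshold there were 2290 and 6981, and with a fold over 2, 823 and 2389. With a pseudocount of 5, 146 differences were below 0. Leaving out one library gave 1318 to 1345 genes higher, 4508 to 4604 lower, 27 to 78 differences above 0 and 29 to 133 below. A fit with a replicate block gave 1334 genes higher and 4582 lower and 30 differences above 0 and 33 below. The replicate numbers were not shown to pair the M-BKO cultures, since same-numbered M1 and control deviations from the group means correlated at -0.0175, -0.067 and 0.0139. The counts were within 1.5 times those above with a pseudocount of 0.1, a minimum of 5 TPM or none, another variance model and the 6 M-BKO libraries alone.

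B2m was the one gene of the 546 selected by the naming rule whose sign turned, with -0.80 after quantile normalization and 0.10 on TPM, where it was not called. Of these genes, 68 lost and 13 gained a call after median-ratio scaling and 29 lost it with a pseudocount of 5. Of the 20 largest differences between genotypes, 7 lost the call with a pseudocount of 0.1, 4 without the filter on low values, 2 with the block and 0 to 4 without any one library. Cav1, Ccl24, Slc7a11 and Zdhhc2 were those without the filter.

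TPM are shares of a library: the direction of genes near the median response depends on the scale, and absolute RNA per cell was not measured. The depth is unknown, so no limit of detection can be given for genes listed at 0. The labels do not say whether cultures of a group came from separate mice, so p-values measure the spread between these cultures. A single time after LPS was sampled.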

Other observations

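Survival and sensing genes, not described so far, were divided in M-BKO cultures. Beside the counts of this section stand the shares over all genes described. On TPM 12.3% rose and 42.5% fell, and after scaling 22.2% and 22.3%. Of 22 genes of the BCL-2 family and death receptors, 8 rose and 4 fell (12 and 2 after scaling). The anti-apoptotic Bcl2a1 genes stand next to each other on chromosome 9: Bcl2a1d had 612, 623 and 631 TPM in M1 and 22.5, 27.8 and 25.2 TPM in control cultures (4.58, limma adjusted p = 5.1e-15), Bcl2a1a rose by 4.27 and Bcl2a1b, the most abundant, by 2.76 to 1399 ± 29.9 against 207 ± 9.87 TPM. These copies are near-identical and reads could be split among them. Cflar, which blocks caspase-8, rose by 2.65 and Bmf, a pro-apoptotic member, fell by 2.39. Of 23 inflammasome and lytic death genes, 6 rose and 9 fell (6 and 5 after scaling), with Mefv, the pyrin gene, up by 2.43 and Nlrp3 by 0.94, and Nlrp1b (-2.29) and the flagellin receptor gene Naip6 (-1.67) lower. Of 16 nucleic-acid sensors, 5 rose and 5 fell (8 and 3 after scaling).

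Extracellular purine genes also moved both ways. The adenosine receptor Adora2b and the nucleotide receptor P2ry2 rose by 2.52 and 2.46, while the ATP-gated channel P2rx7 had 5.43, 5.42 and 5.17 TPM in M1 and 30.9, 31.5 and 31.3 TPM in control cultures (-2.34, limma adjusted p = 1.9e-13) and Ada, which degrades adenosine, fell by 1.91. Of the 16 genes of that list, 5 rose and 6 fell (6 and 6 after scaling). Among NAD and kynurenine genes, 3 of 21 rose and 10 (47.6%) fell (5 and 6 after scaling), near the 42.5% that fell among all genes on TPM. Cd38, which consumes NAD, rose by 3.76 to 207, 208 and 203 TPM against 13.7, 13.4 and 15.6 TPM, and Kmo of the kynurenine pathway fell by 1.74. The autophagy receptor Sqstm1 had 1594, 1594 and 1546 TPM in M1 and 373, 399 and 402 TPM in control cultures (2.01), while of 28 autophagy genes 4 rose and 7 fell (8 and 3 after scaling) and Atg7 fell by 1.44. Of 13 complement genes 3 rose and 7 fell (3 and 3 after scaling), with Cfb up by 1.64. The calprotectin genes S100a8 (-1.16) and S100a9 (-1.52) fell, S100a9 to 66.4 ± 1.72 against 193 ± 18.1 TPM, and the S100, acute-phase and granule list held 6 rises and 9 falls among 18 genes (7 and 7 after scaling).

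For lists not described so far only counts are given with their extreme genes. Of 16 integrins, 4 rose and 6 fell (6 and 5 after scaling), from Itga6 (-2.04) to Itga5 (1.39). Of 14 IRF and STAT factors, 4 rose and 3 fell (6 and 2 after scaling). Among 23 genes of the amino-acid transporter list there were 5 rises and 9 falls (7 and 5 after scaling), with the glutamine transporter Slc1a5 the lowest (-2.54). Of 31 ubiquitin-conjugating enzymes, 2 rose and 4 fell (13 and 2 after scaling), Ube2c by the most (-3.83). Of 11 alternative-activation markers, 2 rose and 5 (45.5%) fell (4 and 5 after scaling), near the 42.5% that fell among all genes on TPM.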
